A study of Homo sapiens with 18 samples.

Results

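The genes described here are 40 genes of the G2 phase and mitosis, measured as RNA in 2 human pancreatic ductal adenocarcinoma (PDAC) cell lines, PATU-8988T and PATU-8902. The members were taken by name from the 26249 genes of the deposited table, and all 40 were found and reached a mean of 1 FPKM, the level at which 11477 genes were tested. FPKM is a read count per transcript length and per library scale. Each line, grown in DMEM with serum, was either kept in vehicle (DMSO) for 24 h or given DCLK1-IN-1, which inhibits doublecortin-like kinase 1, at 2.5 µM for 6 h or 24 h. Each of the 6 groups held 3 libraries, described by the submitters as biological triplicates. No DMSO group was collected at 6 h, so in the comparison of 6 h of inhibitor with DMSO the effect of the inhibitor and that of the shorter time cannot be told apart. Each line is a single established tumour line, so a difference between the lines is a difference between these cultures and not between classes of tumour.

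Cells entering mitosis switch on a shared set of genes late in the cell cycle. In resting and early-cycle cells the DREAM complex, made of MuvB proteins with E2F4 or E2F5 and a pocket protein, holds these genes down, and from S phase onwards MuvB pairs instead with B-MYB (MYBL2) and then FOXM1 to activate them. Their promoters are known for a short element called the cell cycle genes homology region (CHR), to which MuvB binds, and for CCAAT boxes bound by the factor NF-Y. The products drive and order division: CDK1 with its cyclins starts mitosis, kinetochore and checkpoint proteins hold anaphase until chromosomes are attached, the anaphase-promoting complex ends it, and kinesins, the chromosomal passenger complex and the cytokinesis proteins separate the daughter cells.

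Promoter sequences show the letters that these genes share. RefSeq promoter windows on GRCh38.p14, from 250 bases before to 50 bases after the annotated start, were found for 34 of the 40 members, and none was found for AURKA, TTK, UBE2C, BIRC5, TPX2 or FOXM1. The CHR letters, searched as TTTGAA or TTCGAA on both strands, were present in 27 of the 34 (79.4%) and in 19.5% of all 27305 genes with a window. The CCAAT letters on either strand were present in 28 of the 34 (82.4%) against 39.7% of all genes. Both were present in 23 members (67.6%) and in 7.85% of all genes. In 24 members (70.6%) a CHR match lay between 60 bases before and 50 bases after a start, against 6.75% of all genes. An E2F site, searched as TTTGGCGC or TTTCGCGC, was present in 2 members, CDK1 and NUSAP1 (5.88%, against 1.4% of all genes). A match is a run of letters and not a measured binding site.

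The windows printed here, each 110 bases, run from 90 bases before to 20 bases after the start on the + strand, with CHR and CCAAT letters (or their reverse complements) in capitals. The first 4 belong to members that were higher in PATU-8902 than in PATU-8988T. INCENP and CENPA are members that were lower relative to the library median. PLK1 shows a kinase promoter with both elements. CCNB1 and KIF20A show a cyclin and a kinesin promoter with CCAAT letters and neither of the CHR forms searched.
HMMR, chr5:163460542-163460651: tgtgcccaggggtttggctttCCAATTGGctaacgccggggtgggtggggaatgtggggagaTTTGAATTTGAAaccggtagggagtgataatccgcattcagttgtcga
CCNB2, chr15:59105056-59105165: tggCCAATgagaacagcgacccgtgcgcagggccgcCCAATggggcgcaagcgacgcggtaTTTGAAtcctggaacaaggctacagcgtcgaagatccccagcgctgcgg
KIF4A, chrX:70290014-70290123: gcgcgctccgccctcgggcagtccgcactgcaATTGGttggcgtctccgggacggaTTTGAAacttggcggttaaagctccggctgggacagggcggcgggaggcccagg
ANLN, chr7:36389772-36389881: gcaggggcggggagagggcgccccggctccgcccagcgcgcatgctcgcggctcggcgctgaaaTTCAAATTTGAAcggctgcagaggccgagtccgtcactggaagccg
INCENP, chr11:62123921-62124030: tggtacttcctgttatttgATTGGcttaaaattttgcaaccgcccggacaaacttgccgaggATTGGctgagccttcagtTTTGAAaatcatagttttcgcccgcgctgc
CENPA, chr2:26785966-26786075: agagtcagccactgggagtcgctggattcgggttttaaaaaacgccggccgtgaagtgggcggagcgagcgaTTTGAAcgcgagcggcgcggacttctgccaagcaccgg
PLK1, chr16:23678799-23678908: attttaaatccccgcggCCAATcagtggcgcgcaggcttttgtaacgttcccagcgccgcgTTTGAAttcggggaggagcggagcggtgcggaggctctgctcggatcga
CCNB1, chr5:69167060-69167169: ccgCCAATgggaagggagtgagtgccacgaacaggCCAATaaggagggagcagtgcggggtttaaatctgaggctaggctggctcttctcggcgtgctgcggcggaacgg
KIF20A, chr5:138179022-138179131: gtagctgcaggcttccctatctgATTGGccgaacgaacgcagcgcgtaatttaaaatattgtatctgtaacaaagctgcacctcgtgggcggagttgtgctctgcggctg
HMMR and ANLN each carried a pair of CHR matches side by side, and CCNB2 carried a pair of CCAAT boxes upstream of its CHR match. CCNB1 and KIF20A had CCAAT letters and no match to TTTGAA or TTCGAA on either strand in the 300-base window. Other forms of the CHR were not searched.

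Libraries differed in overall level, which touches every value below. RNA was normalised by cell count and ERCC spike-in RNA was added before library preparation, and the deposited values are level on the spike-ins. The median FPKM of the tested genes ran from 6.12 to 12.1 in PATU-8988T and from 10.7 to 17.4 in PATU-8902. PATU-8988T DMSO replicate 1 stood apart from the other two libraries of its group, with a median of 6.12 FPKM against 12.1 and 10.2. Results are therefore given on both scales: as deposited, and after centring, where the log2 values of a library were moved so that all libraries had equal medians. Between the lines in DMSO, centring moved the median log2 difference of all tested genes from 0.45 to -0.05. Of the epithelial markers, KRT8 and KRT18 averaged 342 and 405 FPKM in PATU-8988T DMSO, while KRT7, KRT19 and CDH1 lay below 0.2 FPKM there and at 471, 459 and 94.2 FPKM in PATU-8902. The mesenchymal marker VIM averaged 212 FPKM in the PATU-8988T vehicle libraries and 5.66 FPKM in those of PATU-8902.

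The 40 genes were abundant in every group. The median of their group means lay between 50.6 and 121 FPKM, at percentiles 89.5 to 92.1 of the genes tested in the same group. Their summed FPKM was 2381, 5222 and 4273 in the 3 PATU-8988T DMSO libraries and 7211, 5963 and 5770 in the 3 PATU-8902 DMSO libraries. In bulk RNA, fewer cells in G2 and mitosis and less of these RNAs per dividing cell cannot be told apart. CENPE, the kinesin that carries chromosomes to the metaphase plate, was the lowest member in all 6 groups, with a mean of 9.12 FPKM in DMSO in PATU-8988T and of 24.6 FPKM in PATU-8902. The highest member of PATU-8988T DMSO was UBE2C, the ubiquitin-conjugating enzyme of the anaphase-promoting complex, at 364 ± 167 FPKM (SD, n = 3), with CCNB1 highest at 6 h (287) and 24 h (208). In PATU-8902 the highest member was FOXM1 in all 3 conditions, at 537, 521 and 508 FPKM. Neighbouring members in this order mostly did not differ beyond their spread: of 39 adjacent pairs, between 0 and 3 per group had ranges over the libraries that did not overlap.

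**Figure D1:**
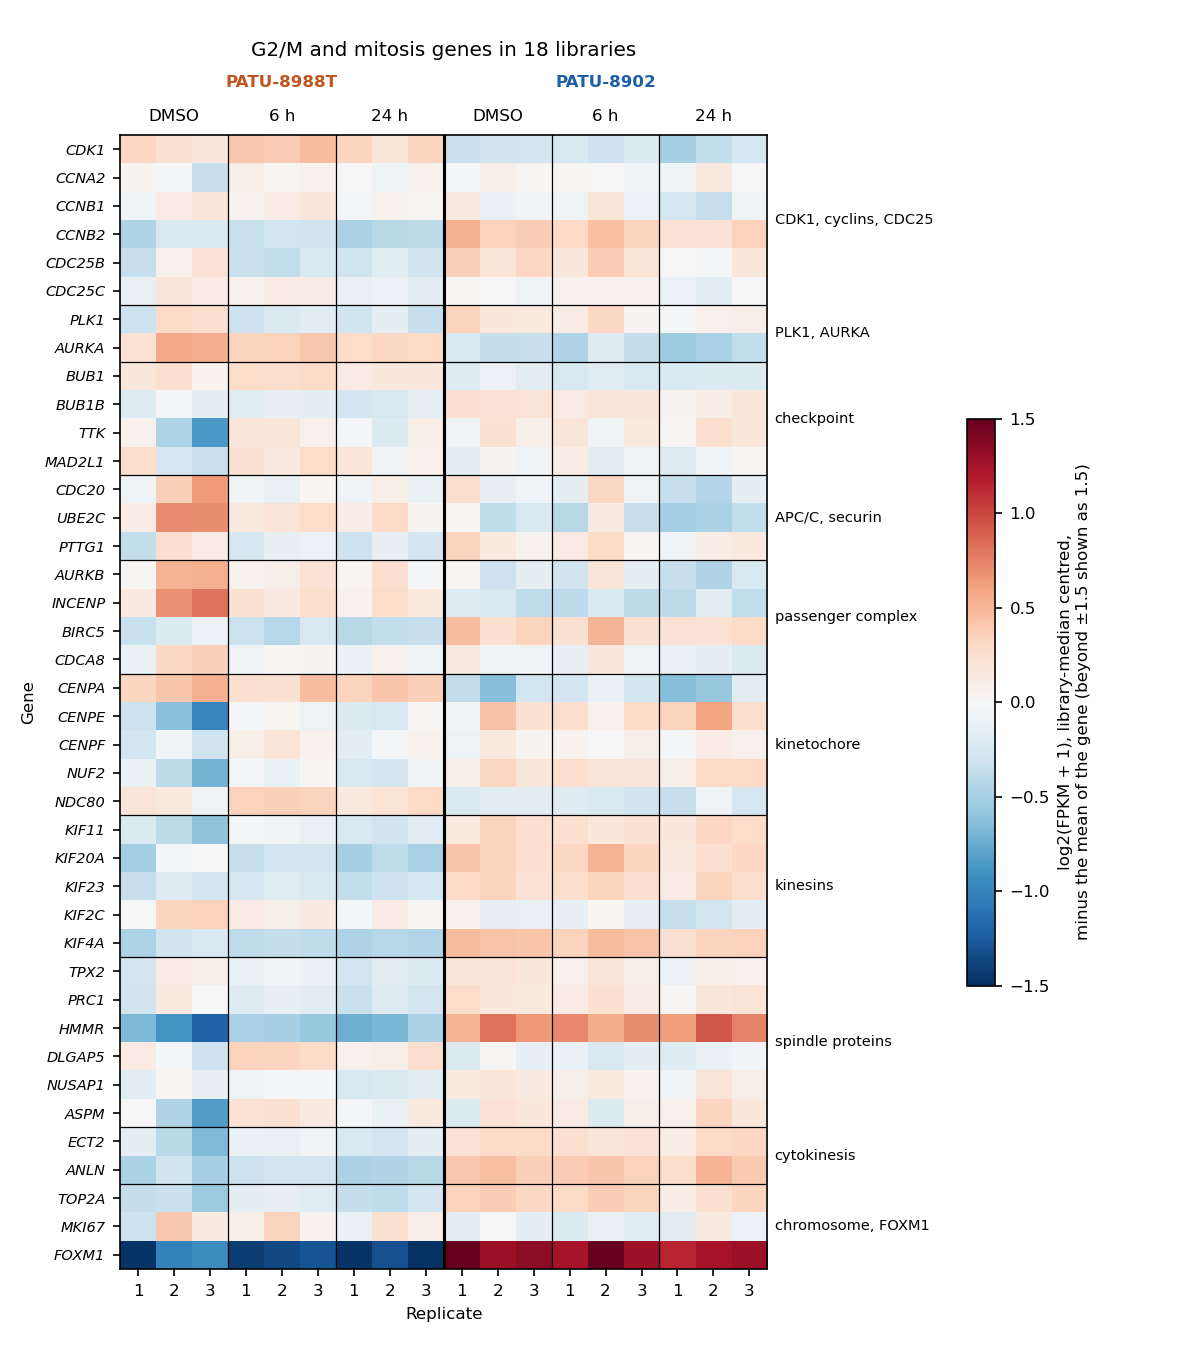
Each row is 1 of the 40 genes, grouped by role, and each column 1 of the 18 libraries; colour gives log2(FPKM + 1) after median centring minus the mean of that gene over all libraries. FOXM1 and HMMR separate the lines in every library, while PATU-8988T DMSO replicates 2 and 3 differ from replicate 1 for genes such as CENPE, TTK, UBE2C and INCENP.

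The first question was whether the inhibitor changed the mitotic genes. In PATU-8902, 24 h of inhibitor left FOXM1, the transcription factor of the set, at 433, 448 and 642 FPKM against 644, 477 and 489 in DMSO, with overlapping libraries. None of the 40 members passed an adjusted p of 0.05 at 24 h, as deposited (0.113% of all tested genes passed) or after centring (0.444%). Their median log2 change after centring was -0.07, against -0.02 for all genes, with 5 members at an unadjusted p below 0.05 after centring and 0 as deposited. Those 5, all below DMSO, were CCNB1 (-0.23 ± 0.10 SE), KIF2C (-0.20 ± 0.09), KIF4A (-0.14 ± 0.06), CDC25B (-0.24 ± 0.11) and CDC20 (-0.33 ± 0.16), and their limma adjusted p lay at 0.634 to 0.645. KIF2C is the kinesin that takes microtubules apart at kinetochores, and CDC20 the activator of the anaphase-promoting complex. The 95% confidence intervals of all 40 changes at 24 h lay between -0.67 and 0.50 after centring and between -1.03 and 0.82 as deposited. These are the sizes of change that the libraries leave possible on each scale.

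At 6 h in PATU-8902 the members sat closer still to DMSO. None of the 40 passed, as deposited (0.00871% of genes passed) or after centring (0.113%), and none had an unadjusted p below 0.05 on either scale. The median change was -0.02 after centring, and single members lay between -0.07 for INCENP and 0.20 for CENPA, the histone variant that marks centromeres. CENPA measured 32.3, 56.8 and 36.3 FPKM at 6 h and 42.4, 29.7 and 37.6 in DMSO, so the groups overlapped. When the 24 h libraries of PATU-8902 were set against those at 6 h, 0 of 40 members passed as deposited (0% of genes) and 0 after centring (0.244%), with 0 and 3 at an unadjusted p below 0.05.

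In PATU-8988T the outcome rested on a DMSO library. With all libraries, 0 of 40 members passed at 24 h as deposited (0% of genes) or after centring (0%), with 1 and 14 members at an unadjusted p below 0.05. At 6 h, 0 passed as deposited (0%) or after centring (0.0784%), with 3 and 18 at an unadjusted p below 0.05. The median log2 change of the members at 24 h was -0.43 as deposited, where all genes had -0.35, and -0.08 after centring, where all genes had 0.00. At 6 h it was 0.02 as deposited and 0.03 after centring. Between 24 h and 6 h, 0 of 40 passed as deposited (0%) or after centring (0%), with 2 and 5 at an unadjusted p below 0.05, although all 40 members had a lower mean at 24 h as deposited, by a median of -0.45 beside -0.32 for all genes.

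Leaving out PATU-8988T DMSO replicate 1 changed these calls for the members and for the transcriptome alike. At 24 h, 25 members then passed as deposited, all lower, where 56.8% of all genes passed (6 higher and 6508 lower). The direction of these members was thus that of nearly all called genes. After centring, 26 passed, 9 higher and 17 lower, where 40.8% passed (2237 higher and 2443 lower). At 6 h, 28 passed after centring, 14 higher and 14 lower, where 42.6% passed (2159 higher and 2725 lower). As deposited, 0 members passed at 6 h, and the share of all genes was not counted for that fit. The members with the largest centred differences at 6 h with all libraries were CENPE (0.62 ± 0.15 SE, limma adjusted p = 0.0817) and ASPM (0.62 ± 0.16, adjusted p = 0.0838) above DMSO and CDC20 (-0.36 ± 0.16, adjusted p = 0.148) below. CENPE measured 7.72, 11.96 and 7.69 FPKM in DMSO, 11.2, 14.45 and 17.5 at 6 h, and 8.72, 8.95 and 12.96 at 24 h. As deposited, the CENPE libraries at 6 h and in DMSO overlapped through DMSO replicate 2. After centring they did not, with log2 values of 3.828, 3.525 and 3.164 in DMSO and 4.13, 4.179 and 4.079 at 6 h. On that scale 13 of the 40 members lay above DMSO at 6 h without overlap and 0 below, where 19.7% of all tested genes did not overlap. UBE2C measured 176, 494 and 421 FPKM in DMSO, 207, 261 and 353 at 6 h, and 181, 215 and 213 at 24 h. For UBE2C, DMSO replicate 1 lay with the treated libraries and replicates 2 and 3 above all of them.

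The direction of these differences varied with the base composition of the transcripts. CENPE to UBE2C, the ratio of an AT-rich to a GC-rich transcript within a library, was 0.0438, 0.0242 and 0.0183 in PATU-8988T DMSO, and lay between 0.0495 and 0.0555 at 6 h and between 0.0416 and 0.0609 at 24 h. Over the 40 members, the centred change at 6 h in PATU-8988T had a Pearson's r of -0.91 and a Spearman's rho of -0.947 with the GC content of the transcripts, and over 10924 tested genes with a known GC content the values were -0.487 and -0.725. The points are genes of the same libraries and are not independent, so no p is given. At 24 h in PATU-8988T the members' r was -0.868, in PATU-8902 it was -0.692 at 24 h and 0.00375 at 6 h. The 20 members of lower GC content had a median change of 0.29 at 6 h in PATU-8988T and the other 20 a median of -0.12. Without DMSO replicate 1, all 14 members called higher were among the 20 of lower GC content and all 14 called lower among the other 20. After each library was corrected for its trend on GC content, the centred changes at 6 h in PATU-8988T lay between -0.23 and 0.30 with all libraries, where they had lain between -0.36 and 0.62. With the correction and without DMSO replicate 1, 13 members passed at 6 h, 2 higher and 11 lower (20.5% of genes passed), where 28 had passed without the correction. At 24 h, 25 passed, 2 higher and 23 lower (28.3% of genes), where 26 had passed, 9 higher and 17 lower.

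**Figure D2:**
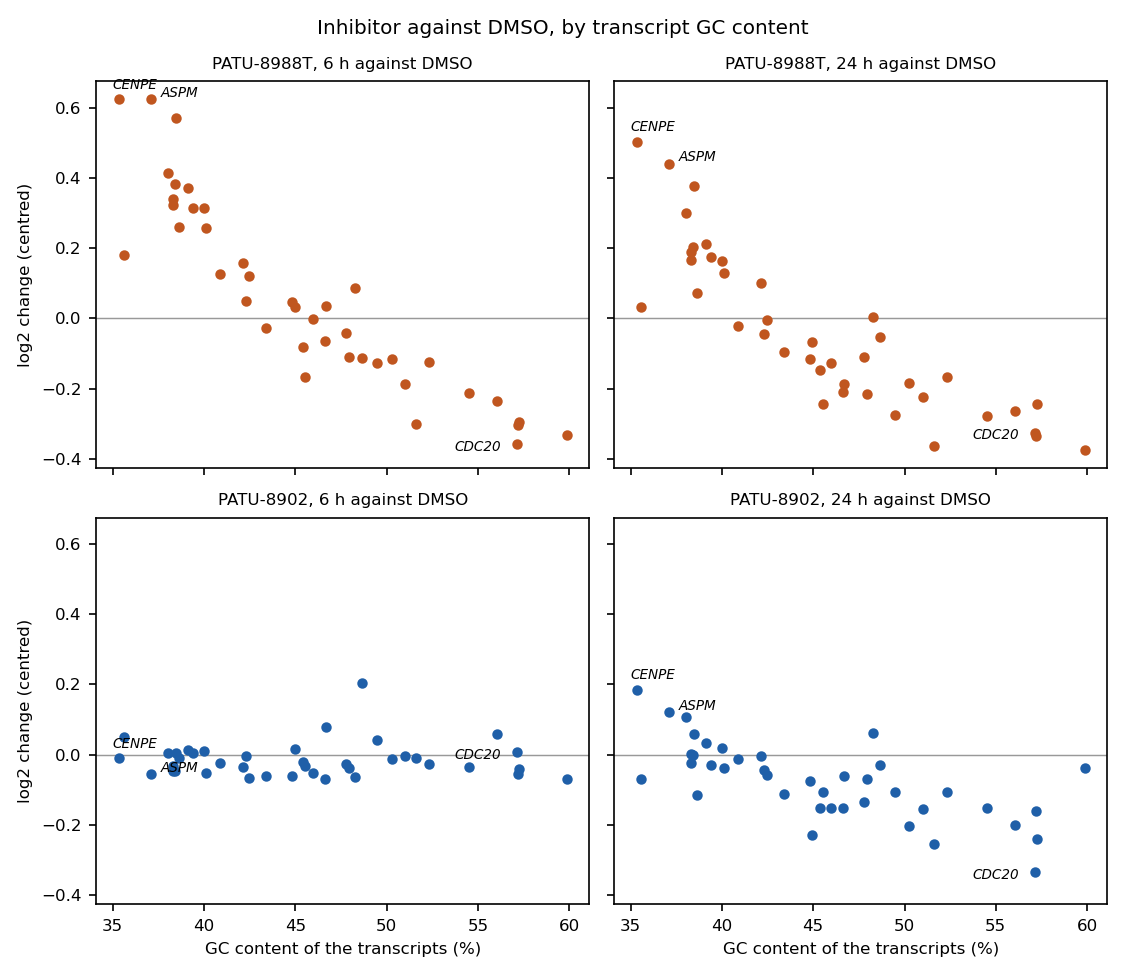
Each panel plots, for 1 inhibitor comparison with DMSO, the centred log2 change of each of the 40 genes against the median GC content of its reference transcripts in percent; each point is 1 gene. The points fall from upper left to lower right in both PATU-8988T panels (r of -0.91 at 6 h and -0.868 at 24 h) and lie flat in PATU-8902 at 6 h.

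Whether the lines answered the inhibitor differently was tested as an interaction. At 24 h, 0 of 40 members passed as deposited (0.00871% of genes) or after centring (0.227%), and 0 had an unadjusted p below 0.05 on either scale. At 6 h, 0 passed as deposited (0%) or after centring (0%), with 2 and 12 at an unadjusted p below 0.05, the lowest centred value being ASPM at -0.68 and the highest CDC20 at 0.36. Without PATU-8988T DMSO replicate 1, 15 members passed at 6 h after centring, 4 higher and 11 lower in PATU-8902, where 20.1% of genes passed, and INCENP alone passed at 24 h (0.54, where 5.54% of genes passed). All these comparisons share the DMSO libraries of their line.

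The lines themselves differed in the mitotic genes. In DMSO, 21 of 40 members were higher in PATU-8902 and 0 lower as deposited, where 54.2% of all tested genes passed (4800 higher and 1424 lower). After centring, 20 were higher and 9 lower, where 72.2% of genes passed (3947 higher and 4337 lower). The members' share called was close to the background on both scales (52.5% and 72.5%), so the number of differing members does not set them apart. Their median log2 difference was 0.72 as deposited beside 0.45 for all genes, and 0.22 after centring beside -0.05. The same 20 genes were called higher on both scales, CCNA2 was called higher as deposited only, the 9 lower calls appeared after centring only, and 10 members were called on neither scale. For 10 members, among them CCNB1, BUB1, AURKB and MKI67, the sign of the difference changed with the scale. Without PATU-8988T DMSO replicate 1, 14 were higher and 1 (INCENP) lower as deposited (51.6% of genes passed), and 20 were higher and 13 lower after centring (75.5%).

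**Figure D3:**
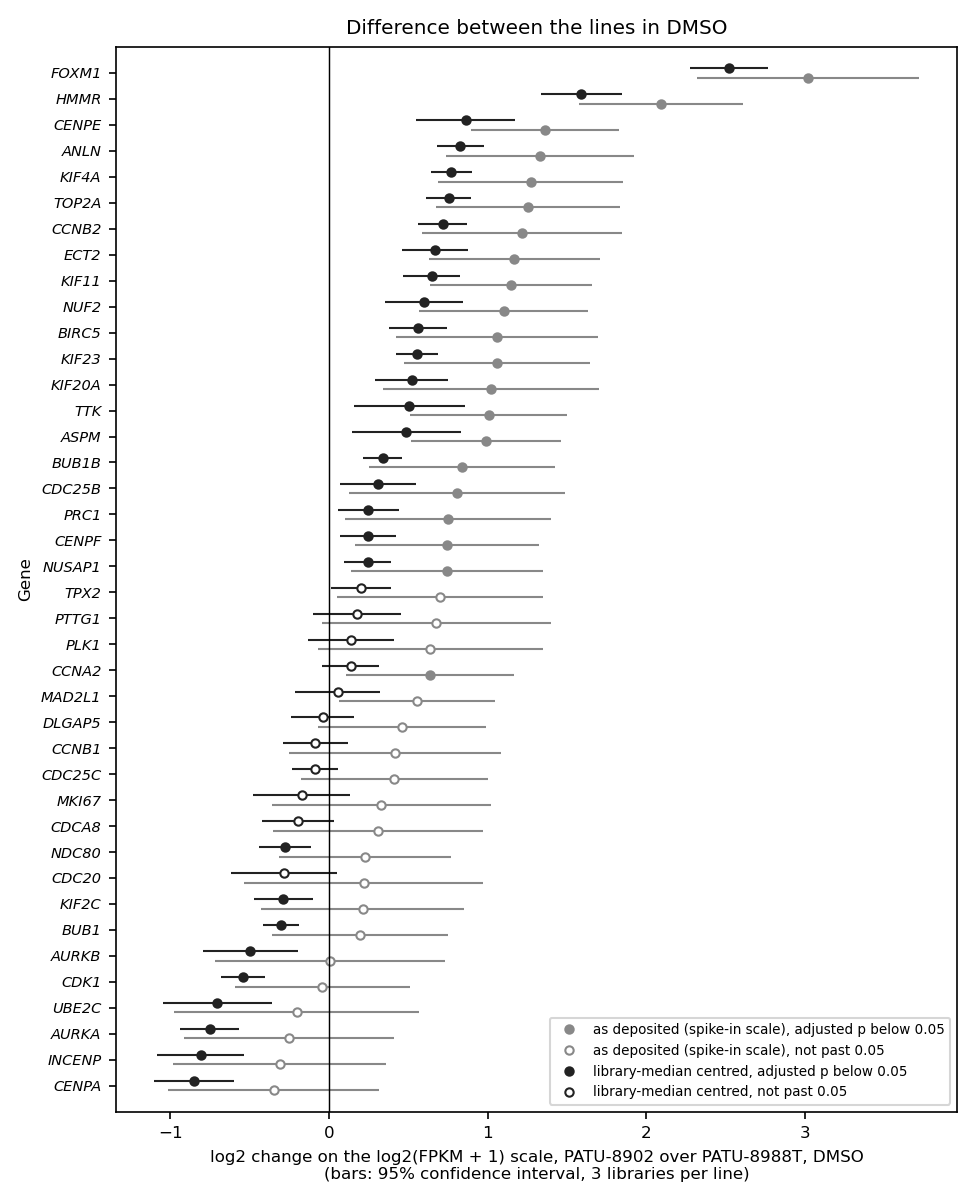
Points give the log2 difference of PATU-8902 over PATU-8988T in DMSO for each of the 40 genes, in grey as deposited and in black after centring, with 95% confidence intervals from limma; filled points passed an adjusted p of 0.05. FOXM1 (3.02 and 2.52) and HMMR (2.09 and 1.59) lie to the right of all other members on both scales, and the lower calls at the bottom are filled after centring only.

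By role, the differences and calls that follow are those in DMSO unless the inhibitor is named. Among CDK1, its cyclins and their activating phosphatases (6 members), 3 were higher as deposited and 2 higher and 1 lower after centring. CCNB2, cyclin B2, measured 60.2, 131 and 112 FPKM in PATU-8988T DMSO and 270, 205 and 205 in PATU-8902 DMSO. The lines did not overlap, and cyclin B2 was higher by 1.22 ± 0.30 as deposited (SE, limma adjusted p = 0.00221) and by 0.72 ± 0.07 after centring (adjusted p = 2.15e-07). CCNB1, the paralogue that is the main partner of CDK1, measured 176, 367 and 328 FPKM and 451, 331 and 337 FPKM, with overlapping libraries and differences of 0.42 ± 0.32 and -0.09 ± 0.10 that did not pass. CDK1 itself measured 93.1, 162 and 134 FPKM against 133, 118 and 118, a difference of -0.04 ± 0.26 as deposited, and was lower after centring at -0.54 ± 0.07 (adjusted p = 1.58e-06). CDC25B, a phosphatase that activates CDK1, was called higher on both scales (0.81 and 0.31), but lost both calls without PATU-8988T DMSO replicate 1 and without PATU-8902 DMSO replicate 1 or 3. CCNA2, cyclin A2, was higher as deposited (0.64 ± 0.25) and kept that call in none of the fits without a DMSO library except the one without PATU-8988T replicate 2.

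Neither of the mitotic kinases PLK1 and AURKA was called higher in PATU-8902 in DMSO. PLK1, which acts from centrosome maturation to cytokinesis, measured 43.2, 124 and 103 FPKM in PATU-8988T and 155, 118 and 115 in PATU-8902, with differences of 0.64 ± 0.34 and 0.14 ± 0.13 that did not pass. Under the inhibitor PLK1 was higher in PATU-8902 on both scales, by 0.85 as deposited and 0.38 after centring at 6 h and by 1.22 and 0.31 at 24 h. At 24 h it measured 45.0, 53.5 and 54.2 FPKM in PATU-8988T and 104, 109 and 152 in PATU-8902, with no overlap. AURKA, the spindle-pole kinase, measured 109, 255 and 215 FPKM and 179, 141 and 140, and was lower after centring by 1.69-fold (log2 -0.75 ± 0.09 SE, limma adjusted p = 9.95e-07), but not as deposited (-0.25 ± 0.31). Of the 4 spindle checkpoint genes, BUB1B and TTK were higher on both scales, BUB1 was lower after centring (-0.30 ± 0.05) and MAD2L1 passed on neither (0.55 as deposited, adjusted p = 0.0534). TTK, the kinase that starts checkpoint signalling, lost its centred call without PATU-8988T DMSO replicate 3 and without PATU-8902 DMSO replicate 2. BUB1B lost its deposited call without replicate 1 of either line in DMSO.

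None of the 3 genes of the anaphase-promoting complex and securin was called higher in DMSO. UBE2C, which reached 494 FPKM in 1 PATU-8988T library, measured 373, 243 and 266 in PATU-8902 DMSO, and was lower after centring by 1.63-fold (log2 -0.70 ± 0.16, limma adjusted p = 9.71e-04). That call was lost when PATU-8988T DMSO replicate 1 was the only DMSO library kept for its line. CDC20 (-0.28 ± 0.16) and PTTG1, which encodes securin (0.18 ± 0.13), did not pass after centring or as deposited. Under the inhibitor PTTG1 was higher in PATU-8902 at 24 h on both scales (1.23 and 0.31) and at 6 h after centring (0.31), but not at 6 h as deposited (0.78, limma adjusted p = 0.0667).

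The 4 genes of the chromosomal passenger complex split within the complex. BIRC5, which encodes survivin, measured 41.6, 84.1 and 78.6 FPKM in PATU-8988T DMSO and 165, 121 and 128 in PATU-8902 DMSO, with no overlap, and was higher by 1.06 ± 0.30 as deposited (adjusted p from limma 0.00643) and 0.56 ± 0.09 after centring. INCENP, the scaffold of the complex, measured 19.1, 53.3 and 49.95 FPKM and 35.1, 29.1 and 25.9, and was lower after centring by 1.75-fold (log2 -0.81 ± 0.13, adjusted p = 3.43e-05). AURKB, its kinase, was lower after centring by 0.50 on the log2 scale (-0.50 ± 0.14) and at 0.01 ± 0.35 as deposited, and its call was lost with PATU-8988T DMSO replicate 1 as the only DMSO library of the line. CDCA8, borealin, passed on neither scale.

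Among 5 kinetochore genes, CENPE, CENPF and NUF2 were higher on both scales, and CENPA and NDC80 were lower after centring. CENPE lay between 7.69 and 11.96 FPKM in the PATU-8988T DMSO libraries and between 22.8 and 27.7 in those of PATU-8902, a difference of 1.36 ± 0.22 as deposited (limma adjusted p = 4.11e-05) and 0.86 ± 0.15 after centring. CENPA measured 29.9, 59.5 and 55.7 FPKM and 42.4, 29.7 and 37.6, and was lower after centring by 1.80-fold (log2 -0.85 ± 0.12, adjusted p = 8.10e-06). NUF2 and NDC80 form a dimer in the microtubule-binding complex of the kinetochore, and the calls for them after centring were opposite, at 0.60 ± 0.12 and -0.28 ± 0.08. CENPF, a large protein of the outer kinetochore, lost both calls without PATU-8988T DMSO replicate 3 and without PATU-8902 DMSO replicate 2, and its deposited call also without replicate 1 of either line or PATU-8902 replicate 3.

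Of the 5 kinesins, KIF11, KIF20A, KIF23 and KIF4A were higher on both scales and KIF2C was lower after centring (-0.29 ± 0.09). The KIF2C call was lost with PATU-8988T DMSO replicate 1 as the only DMSO library of the line, and when the DMSO groups were fitted alone. KIF4A, a chromosome-bound kinesin that shapes the central spindle, measured 16.1, 34.3 and 30.5 FPKM in PATU-8988T DMSO and 72.4, 60.2 and 58.7 in PATU-8902 DMSO. It was higher by 1.27 ± 0.28 as deposited (limma adjusted p = 7.67e-04) and by 0.77 ± 0.06 after centring (adjusted p = 6.60e-09), with no overlap. KIF20A lost its deposited call without replicate 1 of either line in DMSO. Both cytokinesis genes were higher on both scales. ANLN, anillin, which scaffolds the contractile ring, measured 81.1, 170 and 127 FPKM against 339, 301 and 276, and ECT2, the activator of RhoA at the ring, 79.4, 122 and 87.5 against 230, 209 and 204. Their centred differences were 0.83 ± 0.07 and 0.67 ± 0.10.

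Of the 6 spindle proteins, PRC1, HMMR, NUSAP1 and ASPM were higher on both scales. HMMR, a spindle-assembly protein that is also a receptor for hyaluronan, measured 33.2, 52.8 and 36.3 FPKM in PATU-8988T DMSO and 174, 186 and 162 in PATU-8902 DMSO. Over all conditions its highest PATU-8988T library stood at 64.9 and its lowest PATU-8902 library at 148 FPKM. The difference in DMSO was 4.26-fold as deposited (log2 2.09 ± 0.25, limma adjusted p = 7.39e-07) and 3.01-fold after centring. ASPM lost its centred call without PATU-8988T DMSO replicate 3 and without PATU-8902 DMSO replicate 2, and PRC1 lost it without PATU-8988T DMSO replicate 1 and without PATU-8902 DMSO replicate 1. As deposited, PRC1 and NUSAP1 were called in no fit without a DMSO library except the one without PATU-8988T replicate 2. NUSAP1 also lost its centred call when the DMSO groups were fitted alone, and with the GC correction without PATU-8988T DMSO replicate 1. TPX2, the activator of AURKA on the spindle, and DLGAP5 passed on neither scale.

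TOP2A and MKI67, both used as labels of dividing cells, did not move together. TOP2A, the topoisomerase that untangles sister chromatids, measured 121, 228 and 169 FPKM in PATU-8988T DMSO and 446, 392 and 368 in PATU-8902 DMSO, and was higher by 1.26 ± 0.28 and 0.75 ± 0.07. MKI67, the gene of the Ki-67 antigen, measured 50.7, 156 and 111 FPKM against 128, 124 and 111, with differences of 0.33 ± 0.33 and -0.17 ± 0.14 that did not pass.

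FOXM1, the activator of the late mitotic genes, had the largest difference of the 40 on both scales. It measured 35.7, 91.7 and 82.2 FPKM in PATU-8988T DMSO and 644, 477 and 489 in PATU-8902 DMSO. The difference was 8.11-fold as deposited (log2 3.02 ± 0.33, limma adjusted p = 3.04e-07) and 5.73-fold after centring (log2 2.52 ± 0.12, adjusted p = 8.85e-12). Its rank among the 40 by level in DMSO was 19 in PATU-8988T and 1 in PATU-8902. FOXM1 made up between 1.43% and 1.92% of the summed FPKM of the set in the 9 PATU-8988T libraries and between 7.99% and 8.94% in the 9 PATU-8902 libraries. The ratio of FOXM1 to CCNB1 was 0.193 to 0.250 in PATU-8988T and 1.37 to 1.66 in PATU-8902.

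Genes next to FOXM1 on chromosome 12 differed between the lines in the same direction. The 6 nearest tested genes on each side in the RefSeq order of GRCh38.p14 had a median centred difference of 2.38, and 11 of the 12 lay above 0 (10 of them above 1). RHNO1, the next tested gene on its other side from NRIP2, measured 17.8, 40.5 and 33.5 FPKM in PATU-8988T DMSO and 307, 241 and 241 in PATU-8902 DMSO, a centred difference of 2.63 ± 0.08. The others above 1 were ADIPOR2 (2.93), DCP1B (3.13), FKBP4 (1.99), ITFG2 (1.60), TULP3 (2.58), TEAD4 (2.61), TSPAN9 (1.11), CRACR2A (2.52) and PARP11 (2.25). NRIP2 stood at 0.50 after centring and did not pass, but was among the 11 neighbours called higher as deposited (0.998). Its means in DMSO were 0.301 FPKM in PATU-8988T and 1.61 FPKM in PATU-8902, a level at which the log2(FPKM + 1) scale understates a change. WNT5B was lower at -4.99 after centring. Of 10345 tested genes with 6 tested neighbours on each side, 17 (0.164%) had a neighbour median at least as high as that of FOXM1. Adjacent genes share most of their neighbours, so these 17 are not independent and the percentage is a description only. The neighbours' median was 2.31 in the 6 h libraries and 2.12 in the 24 h libraries. No DNA copy number was measured here, and the part of the chromosomal region in the FOXM1 difference was not tested.

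**Figure D4:**
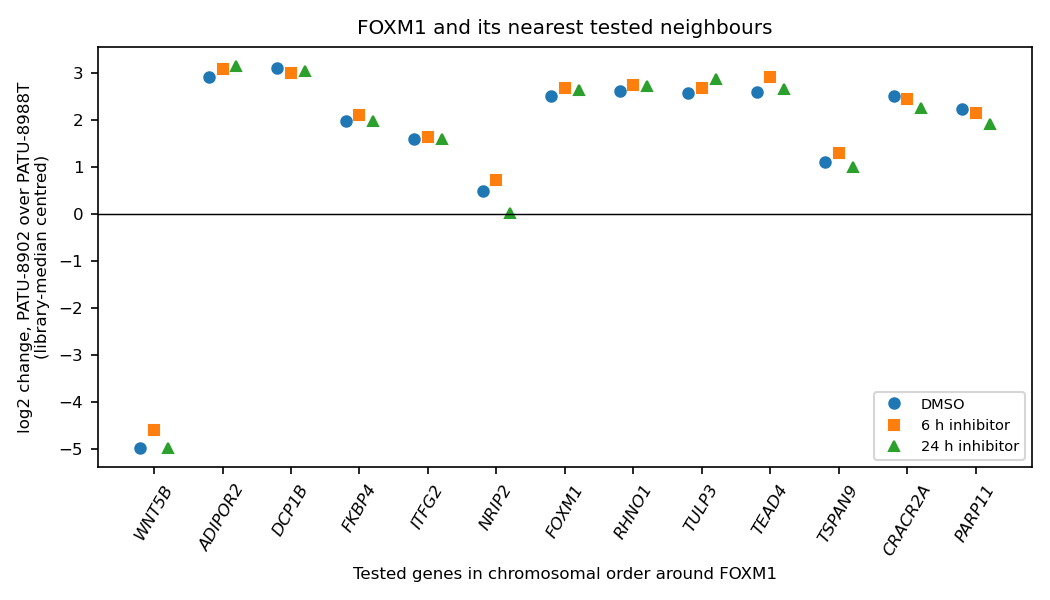
The y axis gives the centred log2 difference of PATU-8902 over PATU-8988T for FOXM1 and the 6 nearest tested genes on either side, in chromosomal order and without distances on the x axis; symbols mark the DMSO, 6 h and 24 h libraries. The values in DMSO exceed 1 for FOXM1 and 10 of its 12 neighbours. NRIP2 lies on the same side of 0 at 0.50, and WNT5B on the other at -4.99.

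The other members varied in how closely they followed their neighbours. Over the 40 members, the centred difference of the gene and the median of its 12 nearest tested genes had a Pearson's r of 0.728 and a Spearman's rho of 0.59, and without FOXM1 (39 members) the values were 0.591 and 0.558. Over all 10345 genes they were 0.346 and 0.4. Some windows share genes, so the points are not independent and no p is given. Of the 20 members called higher after centring, 15 had a neighbour median above 0, and of the 9 called lower, 8 had one below 0. The same counts were not made over all tested genes, so these do not set the members apart. AURKA (-0.75, neighbours -1.39), INCENP (-0.81, neighbours -0.86) and BUB1B (0.34, neighbours 1.14) had neighbours at least as far from 0 as themselves. HMMR did not: its neighbours' median was 0.20 where HMMR had 1.59, and CENPE had 0.86 beside a neighbour median of -0.21.

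**Figure D5:**
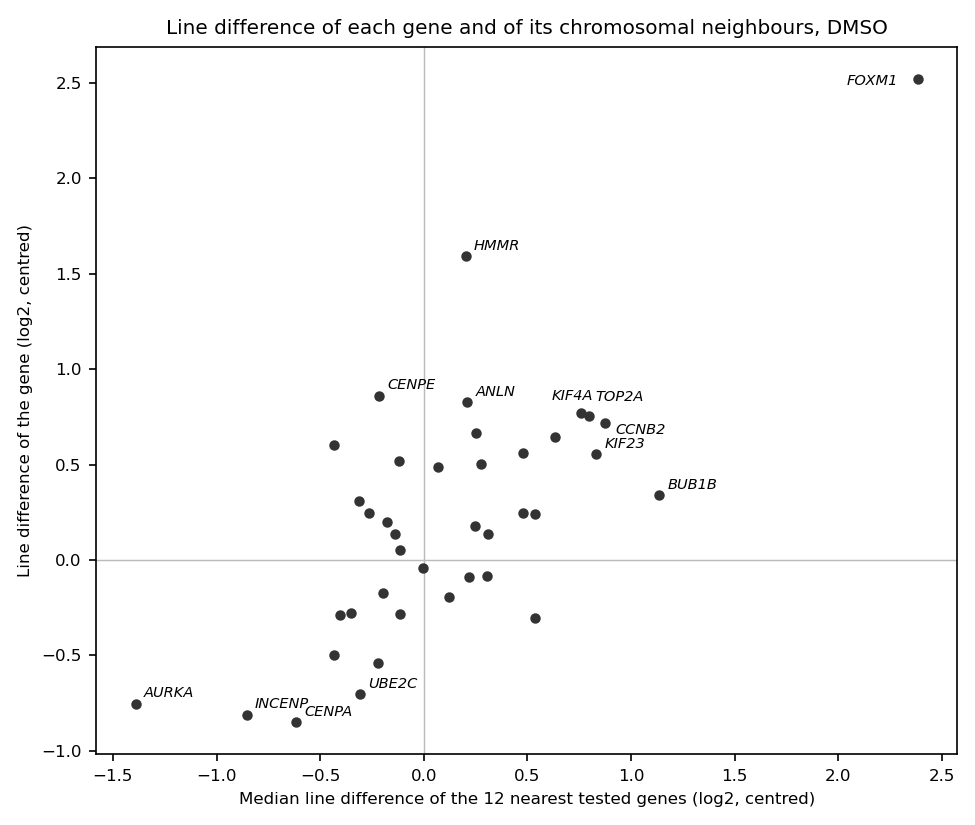
Each point is 1 of the 40 genes; the x axis gives the median centred log2 difference between the lines of its 12 nearest tested genes and the y axis its own, both for PATU-8902 over PATU-8988T in DMSO. FOXM1 lies alone at the upper right (2.38 and 2.52), and HMMR lies high above neighbours near 0 (0.20 and 1.59).

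The line difference was also present under the inhibitor. At 6 h, 17 members were higher and 0 lower as deposited (51.5% of genes passed), and 16 were higher and 8 lower after centring (69.8%). At 24 h, 29 were higher and 0 lower as deposited (71.4%), and 20 were higher and 11 lower after centring (71.6%). In all 3 conditions, 16 members were called higher as deposited, and 14 higher and 7 lower after centring. These are 40% and 52.5% of the members, and 44.2% and 59% of all tested genes were called the same way in all 3 conditions, so the members stood no higher than the background. The 14 were CCNB2, CDC25B, BUB1B, BIRC5, KIF11, KIF20A, KIF23, KIF4A, PRC1, HMMR, ECT2, ANLN, TOP2A and FOXM1, and the 7 were CDK1, AURKA, BUB1, UBE2C, INCENP, CENPA and NDC80. FOXM1 differed by 2.70 at 6 h and 2.64 at 24 h after centring, and HMMR by 1.18 and 1.40. After centring, CENPE, CENPF, NUF2, TTK, ASPM and NUSAP1 were called higher in DMSO and not at 6 h. AURKB and KIF2C were called lower in DMSO and not at 6 h. CENPE, ASPM and TTK had centred differences of 0.23, -0.19 and -0.06 at 6 h. The difference between conditions is the interaction given above, in which no member passed with all libraries. Without PATU-8988T DMSO replicate 1, 15 members passed at 6 h after centring (20.1% of genes) and 1 at 24 h (5.54%).

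A comparison within the set does not depend on the scaling between libraries. Each member was expressed as a percentage of the summed FPKM of the 40 in the same library. For 9 members every PATU-8902 library lay above every PATU-8988T library: CCNB2, BIRC5, KIF20A, KIF23, KIF4A, HMMR, ANLN, TOP2A and FOXM1. For 12 every PATU-8902 library lay below, and 19 overlapped. When all 11477 tested genes were divided by the same sum, the libraries of the lines did not overlap for 57.3%, beside 21 of the 40 members. HMMR made up 1.09 ± 0.28% (SD, n = 3) in DMSO in PATU-8988T and 2.78 ± 0.35% in PATU-8902. AURKA made up 4.83 ± 0.24% and 2.42 ± 0.06%, and UBE2C 8.91 ± 1.31% and 4.62 ± 0.55%. A larger share of FOXM1 lowers the shares of the others by construction.

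Members with and without a CHR match in the promoter window were called in both directions. Of the 27 with a match, 15 were higher, 5 lower and 7 not called after centring in DMSO. Of the 7 without one, 2 were higher, 2 lower and 3 not called. The 6 members without a window in the table held 3 higher, 2 lower and 1 not called. Of all tested genes, 72.2% were called in this comparison (3947 higher and 4337 lower).

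The regulators of the set were read from a list of 18 further genes of the DREAM complex, MuvB, NF-Y and the CDK inhibitors, all tested. None passed in any of the 4 inhibitor comparisons on either scale, where 0% to 0.444% of all tested genes passed. The regulators were not followed through the fits without PATU-8988T DMSO replicate 1. Between the lines in DMSO, 7 were higher and 3 lower as deposited, and 5 higher and 8 lower after centring. The shares called, 55.6% and 72.2%, were close to those of all tested genes (54.2% and 72.2%). MYBL2, which encodes B-MYB, the partner that precedes FOXM1, measured 44.9, 125 and 109 FPKM in PATU-8988T DMSO and 59.9, 46.4 and 43.3 in PATU-8902 DMSO. It was lower on both scales, by -0.77 ± 0.32 as deposited (limma adjusted p = 0.0490) and -1.27 ± 0.12 after centring (adjusted p = 1.10e-07). CDKN1A, the p21 inhibitor of cyclin-dependent kinases, measured 5.98, 13.2 and 10.1 FPKM in PATU-8988T DMSO and 1.47, 0.761 and 1.18 in PATU-8902 DMSO, and was lower at -2.79 ± 0.15 after centring. CDKN1B, the p27 inhibitor, measured 9.04, 15.7 and 12.99 FPKM and 66.9, 61.6 and 57.6, and was higher by 1.74 ± 0.08. NFYB, a subunit of NF-Y, was higher (0.82 ± 0.10) while NFYA and NFYC were lower after centring (-0.94 ± 0.07 and -0.75 ± 0.11).

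Other cell cycle genes were read from further lists. Of 71 further G2 and mitosis genes, 29 were higher in PATU-8902 DMSO and 1 lower as deposited, and 26 were higher and 28 lower after centring, with medians of 0.50 and -0.00. The shares called, 42.3% and 76.1%, stand beside 54.2% and 72.2% of all tested genes. Of 38 genes of the G1 to S transition and DNA replication, 13 were higher and 1 lower as deposited, and 13 higher and 14 lower after centring (36.8% and 71.1% called). In the 4 inhibitor comparisons 0 of the 71 and 0 of the 38 passed on either scale, where 0% to 0.444% of all tested genes passed. Neither list was followed through the fits without PATU-8988T DMSO replicate 1. CENPK, a kinetochore gene, had a difference of 2.38 ± 0.22 as deposited (limma adjusted p = 3.43e-08), and FAM64A was the 1 gene of the 71 that was lower as deposited (-0.90 ± 0.27).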

How the data were processed

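Polyadenylated RNA from cell-count-normalised samples with ERCC spike-ins was sequenced in 18 libraries, per the labels' protocols (KAPA mRNA HyperPrep libraries, single-end reads). The authors deposited 1 table of FPKM values, a row per gene symbol. HISAT, Cufflinks, Cuffnorm and the build hg19 are named per the submitters' processing notes; their versions, the strand setting and the annotation were not given in the sources used here. This table holds no counts, so sequencing depth is unknown and no counting interval can be given. Each library has a floor between 0.0614 and 0.116 FPKM, and no member lay near it.

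Values were analysed as log2(FPKM + 1) for 11477 genes whose mean reached 1 FPKM; a fold change on this scale understates the change of low genes. limma 3.58.1 (R 4.3.3, mean-variance trend) fitted 6 group means over all 18 libraries (12 residual degrees of freedom). Tests were 2-sided, with Benjamini-Hochberg adjustment over all tested genes and a call at an adjusted p below 0.05. P-values measure the spread between these libraries. Every fit was made as deposited and after median centring. The fitting code was run on simulated data for centred values and the comparison of 24 h with DMSO in PATU-8902 only. Transcript GC content was the median over reference transcripts of a symbol (found for 95.2% of tested genes).

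The members, role groups and other lists were chosen with earlier results of these data known, and no list was tested as a list. By plan, members past the threshold could be named, at most 25 a contrast, and otherwise the 5 with the smallest p. That limit was not kept for the lines in DMSO, where every called member was named. Regulators were named from the DREAM and MuvB list. Chromosomal neighbours and the 2 further genes were named after their values were seen. Alternatives were median centring, 0.1 as pseudocount, testing every gene or only those above 5 FPKM, a replicate block, the compared groups alone, spike-in rescaling and leaving out each library. The GC correction, the line comparison at 6 h and 24 h, PATU-8988T DMSO replicate 1 alone, and the GC correction without that replicate were chosen after seeing the data.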

Additional observations from a re-analysis of the deposited data

How the results depend on the processing

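Leaving out each library in turn gave counts of called members of 0 to 25 (24 h as deposited), 0 to 26 (24 h after centring) and 0 to 28 (6 h after centring) in PATU-8988T, and 0 to 1 (24 h) and 0 to 15 (6 h) after centring for the difference between the lines in the inhibitor effect. In each of these, 0 came from every fit except the one without PATU-8988T DMSO replicate 1. With the GC correction and without that replicate, 34 members passed in PATU-8988T at 24 h as deposited, all lower. After centring, 25 passed at 24 h (28.3% of genes) and 13 at 6 h (20.5%). For the difference between the lines in the inhibitor effect, 1 passed at 24 h and 1 at 6 h after centring. For the lines in DMSO as deposited, 9 passed (7 higher, 2 lower). The share of all genes was counted only for the 25 and the 13, so the other counts do not set the members apart. Without the correction, 56.8% of genes passed in PATU-8988T at 24 h as deposited, 6508 lower and 6 higher. CENPF, 0.24 after centring between the lines, was at -0.10 with the correction and without that replicate. The cause was not tested. Counts for the lines in DMSO ran from 14 to 26 as deposited and from 26 to 33 after centring over the fits that leave out a library. CCNB2, BIRC5, CENPE, KIF4A, HMMR, ANLN and FOXM1 kept their call under every alternative run, on both scales. The replicate numbers were not found to pair the libraries: over 45 pairs with the same number, correlations of deviations from the group means lay between -0.222 and 0.143. With the replicate block, 23 members were called between the lines in DMSO as deposited and 30 after centring (21 and 29 without it), and 0 in the inhibitor comparisons. Of 270 alternative counts, 259 were equal to the value reported or within 1.5 times of it. Most of these were counts of 0 in the inhibitor comparisons that stayed at 0, so this number says little about stability. With 3 libraries a group and no counts, small changes in members cannot be resolved: the median standard error of a member's change was 0.28 as deposited and 0.09 after centring.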
